A study of Mus musculus with 39 samples.

Results

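The Wnt ligands, their Frizzled receptors and the secreted proteins that tune them were followed through the gubernaculum and testis of mice with an altered insulin-like 3 gene (Insl3). Genes were taken by symbol, as every Wnt, Fzd, Rspo, Sfrp or Dkk gene with a number in its name, and joined between 2 count tables by Ensembl identifier. The search found 41 genes of the 21561 present in both tables: 19 Wnt, 10 Fzd, 4 Rspo, 4 Sfrp and 4 Dkk genes. RNA-seq had been made from male mice of 3 genotypes on a C57BL/6J background, in 39 libraries that form 13 groups of 3. WT mice were compared with INSL3-KI mice, homozygous for a minke whale INSL3 cDNA placed at the mouse Insl3 locus in embryonic stem cells and freed of its neomycin cassette with Cre, and with INSL3-KO mice, whose allele is described in the sources used here only as a knockout. Gubernaculum, the ligament that guides the testis out of the abdomen, was sampled at postnatal day 8 (P8) in WT, INSL3-KI and INSL3-KO and at day 23 (P23) in WT and INSL3-KI. Testis was sampled at P8 and P23 in all 3 genotypes and at day 40 (P40) in WT and INSL3-KI.

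Wnt proteins are lipid-modified ligands that act over short distances by binding a Frizzled receptor. With the co-receptors Lrp5 and Lrp6 this stabilises beta-catenin, which works with TCF/LEF factors on target genes, whereas other ligand and receptor pairs, Wnt5a and Wnt11 among the ligands, act mainly without beta-catenin on cell shape and polarity. R-spondins bind Lgr receptors and keep Frizzled proteins at the cell surface, Sfrp proteins resemble the ligand-binding part of a Frizzled and capture Wnt proteins outside the cell, and Dkk proteins (other than Dkk3, whose role is less clear) bind Lrp5 and Lrp6. In the urogenital tract Wnt4 and Rspo1 are known for ovarian fate, Wnt9b for the Wolffian duct, and Wnt7b, Wnt6 and Wnt4 for epithelia and the mesenchyme around them.

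Libraries held 29861447 to 45260372 counts (median 36944626), of which the shared genes took 94.2% to 97.9%. The 3 INSL3-KO groups and the WT testis at P23 were in a second count table with other gene models, so a comparison of one of these groups with a group of the first table cannot separate genotype from table. Mouse Insl3 had 2722 to 3524 counts in WT testis at P8 and 20183 to 29799 at P40, against 15 to 33 and 443 to 511 in INSL3-KI. It had 0 to 5 counts in INSL3-KO testis at P23, but 613 to 906 in the P8 testis libraries labelled INSL3-KO, which are named that way below. In P8 gubernaculum it had 25 to 87 counts in WT and 0 in every INSL3-KI and INSL3-KO library. In P23 gubernaculum it had 9 to 27 in WT and 0 to 28 in INSL3-KI, so at P23 it does not separate the 2 groups. The labels name the 3 libraries of a group as biological replicates, and which animals or litters they came from is not stated.

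Of the 41 genes, 8 stayed under 1 FPKM (fragments per kilobase of gene and depth of library, a level per gene length) in every group: Wnt1, Wnt3a, Wnt7a, Wnt8a, Wnt8b, Wnt9b, Dkk1 and Dkk4. WT gubernaculum at P8 had 28 of them at 1 FPKM or more, and WT testis had 26 at P8, 7 at P23 and 8 at P40. The most abundant ligand, in mean FPKM, was Wnt5a in WT gubernaculum at P8 (9.36), Wnt6 in WT testis at P8 (130.0) and Wnt3 in WT testis at P23 (12.4) and P40 (11). The most abundant receptor was Fzd9 in WT gubernaculum at P8 (20.6), Fzd2 in WT testis at P8 (17.9) and Fzd6 in WT testis at P23 (2.52). Among secreted inhibitors Sfrp2 led the gubernaculum with 202.0 FPKM and Sfrp1 the P8 testis with 55.1 FPKM. As the heat map of FPKM shows, most of these genes were much lower in WT testis after P8 than at P8, and in P8 gubernaculum some ligands and receptors were higher and others lower in the mutants.

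**Figure D1:**
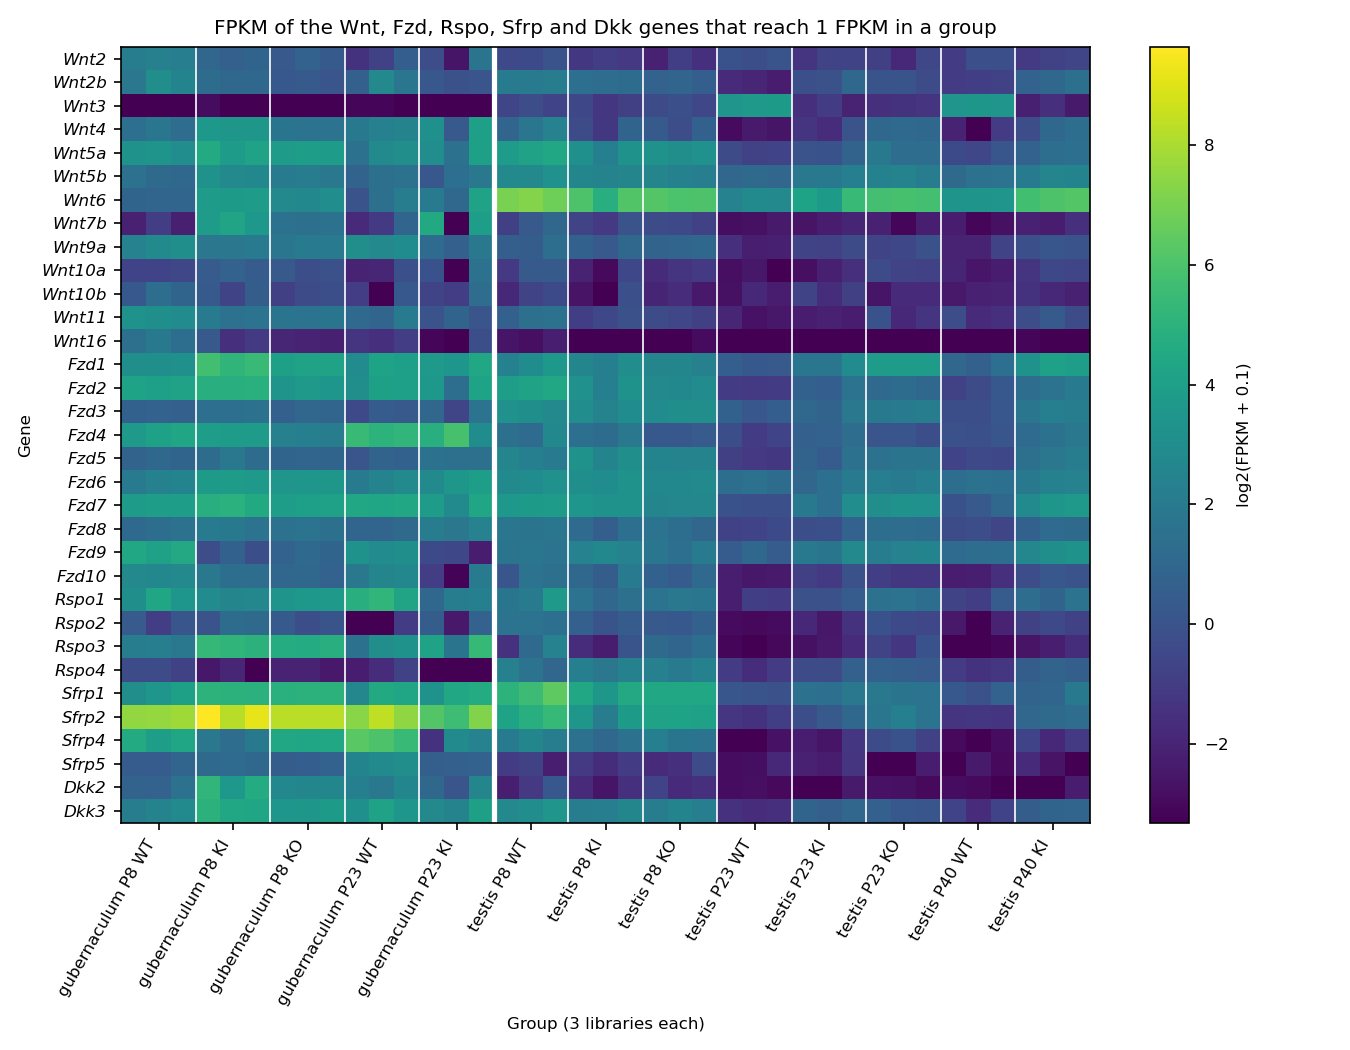
Heat map of log2(FPKM + 0.1) in each of the 39 libraries (columns, 3 per group) for the 33 genes that reach 1 FPKM in at least 1 group (rows). Wnt3 is bright only in WT testis at P23 and P40, and Sfrp2 is the brightest gene in the gubernaculum.

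The stretch of 250 bases before the annotated start is shown for 6 genes. Of these, 3 were called higher and 2 lower in the gubernaculum of both mutants. The other is Wnt3, the ligand with the highest FPKM in WT testis at P23 and P40. They were taken among genes with an unambiguous promoter entry whose window lay almost wholly outside the gene body. Larger changes, such as that of Fzd9, are therefore not shown, and some calls of the genes shown were lost when a library was left out. Sequences are from RefSeq (GRCm38.p6), 5′ to 3′ on the strand of the gene, with CG dinucleotides in capitals.
Wnt9b, chr11:103749822-103750071, minus strand: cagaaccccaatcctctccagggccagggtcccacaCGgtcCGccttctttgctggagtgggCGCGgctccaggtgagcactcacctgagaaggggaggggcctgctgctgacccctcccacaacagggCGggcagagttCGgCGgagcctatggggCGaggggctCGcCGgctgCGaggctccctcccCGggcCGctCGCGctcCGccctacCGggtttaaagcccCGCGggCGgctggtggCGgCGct
Dkk2, chr3:132085042-132085291, plus strand: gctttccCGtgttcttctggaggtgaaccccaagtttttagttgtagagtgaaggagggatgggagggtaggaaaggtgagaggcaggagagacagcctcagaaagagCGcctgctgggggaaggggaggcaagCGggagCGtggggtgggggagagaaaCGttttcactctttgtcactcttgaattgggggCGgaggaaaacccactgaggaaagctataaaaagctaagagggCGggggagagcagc
Wnt6, chr1:74771642-74771891, plus strand: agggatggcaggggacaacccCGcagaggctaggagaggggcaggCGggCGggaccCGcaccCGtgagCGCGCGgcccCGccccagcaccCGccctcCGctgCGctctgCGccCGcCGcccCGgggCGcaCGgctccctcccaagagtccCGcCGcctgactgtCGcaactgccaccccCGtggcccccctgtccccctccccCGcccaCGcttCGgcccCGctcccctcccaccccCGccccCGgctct
Wnt16, chr6:22287977-22288226, plus strand: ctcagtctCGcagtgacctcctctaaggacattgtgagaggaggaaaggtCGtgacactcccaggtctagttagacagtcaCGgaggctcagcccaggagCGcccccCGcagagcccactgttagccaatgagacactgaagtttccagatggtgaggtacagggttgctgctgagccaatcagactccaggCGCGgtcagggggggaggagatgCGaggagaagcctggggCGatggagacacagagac
Wnt9a, chr11:59306680-59306929, plus strand: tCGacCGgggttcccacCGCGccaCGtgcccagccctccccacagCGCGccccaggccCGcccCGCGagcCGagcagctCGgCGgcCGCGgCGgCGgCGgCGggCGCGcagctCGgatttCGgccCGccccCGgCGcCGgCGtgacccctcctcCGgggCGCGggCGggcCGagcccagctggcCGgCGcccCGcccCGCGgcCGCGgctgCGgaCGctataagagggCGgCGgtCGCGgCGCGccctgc
Wnt3, chr11:103773925-103774174, plus strand: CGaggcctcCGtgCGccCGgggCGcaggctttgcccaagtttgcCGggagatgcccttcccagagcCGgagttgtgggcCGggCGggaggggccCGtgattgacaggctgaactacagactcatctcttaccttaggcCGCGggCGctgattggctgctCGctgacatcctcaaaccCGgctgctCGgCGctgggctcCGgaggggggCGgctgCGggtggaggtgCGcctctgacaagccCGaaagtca
The windows differed widely in base composition. Dkk2 held 7 CG dinucleotides and 55.6% G and C, and Wnt16 held 9 and 59.2%, close to the medians of all 32851 such windows (6 and 52.4%). Wnt9b and Wnt3 held 22 each, Wnt6 held 28 and Wnt9a held 48 with 84.4% G and C. Both strands were searched for the TCF/LEF motif CTTTG followed by AA, AT, TA or TT, which 14.8% of all windows held. They were also searched for the cAMP response element TGACGTCA (1.55%), its half-site TGACG (17.8%, which overlaps the former) and the E-box CAGCTG (13%). In these 6 windows the only match was CAGCTG in Wnt9a, 74 to 69 bases before the start. Wnt9b and Wnt3 are neighbours on chromosome 11, transcribed away from each other with 24.3 kb between the gene bodies. The promoter table has an entry for 27 of the 41 genes.

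In P8 gubernaculum, INSL3-KI and WT are both in the first table. INSL3-KI mice carry the whale hormone in place of the mouse one, and the authors state that their model cannot fully separate these 2 changes. Of the 34 genes that passed the filter on low counts, 11 were higher and 9 lower in INSL3-KI, taking as called a change of at least 2-fold whose adjusted p was below 0.01 (edgeR quasi-likelihood test, Benjamini-Hochberg over all genes), beside 14.4% and 9.70% of all 15500 genes tested. The 2 groups did not overlap for 30 of the 34, beside 65.0% of all genes. The median log2 fold change was 0.49 over the 34 and 0.02 over all genes. Wnt1, Wnt3, Wnt7a, Wnt8a, Wnt8b, Dkk1 and Dkk4 were not tested.

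Ligands split into those that rose and those that fell, given here in CPM scaled by the trimmed mean of M-values (TMM) within the comparison. Wnt7b, an epithelial ligand that signals through beta-catenin, stood at 0.552, 1.71 and 0.489 CPM in WT and at 43.1, 59.6 and 37.8 CPM in INSL3-KI, that is 5.66 ± 0.44 on the log2 scale (SE, adjusted p = 2.1e-05). Wnt6 went from 4.15, 4.47 and 4.5 CPM to 27.5, 26.8 and 28.5 CPM (2.66 ± 0.13, adjusted p = 2e-06), with both groups tight and far apart. Wnt4 rose from 12.7, 16.8 and 11.9 CPM to 46.8, 46.7 and 45.9 CPM (1.75 ± 0.15, adjusted p = 3.3e-05). These ligands were thus several-fold higher in every INSL3-KI library. Wnt5b rose from 7.95, 5.93 and 5.81 CPM to 21.0, 15.6 and 14.7 CPM (1.38 ± 0.21). Wnt9b, needed for the growth of the Wolffian duct and its tubules, was near 0 in WT (0, 0.124 and 0.0652 CPM) and low in INSL3-KI (0.588, 1.72 and 0.831 CPM, log2 fold change 3.96 ± 0.88, adjusted p = 0.0056), and its call was lost whichever of the 6 libraries was left out, with an adjusted p of up to 0.03.

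Among the 5 ligands called lower, Wnt16 fell from 4.93, 7.27 and 5.19 CPM to 1.9, 0.573 and 0.708 CPM (-2.44 ± 0.47, adjusted p = 0.0029), a call lost without WT replicate 2 or INSL3-KI replicate 3. Wnt11, which acts largely without beta-catenin, fell from 22.2, 20.4 and 17.4 CPM to 6.23, 5.37 and 5.11 CPM (-1.84 ± 0.16). Wnt2 fell from 11.3, 13.4 and 12.6 CPM to 3.96, 3.23 and 3.69 CPM (-1.77 ± 0.18). In each of these the WT libraries lay above every INSL3-KI library. The same held for Wnt2b (13.5, 33.6 and 22.6 CPM in WT, 7.19, 6.33 and 6.03 CPM in INSL3-KI, -1.83 ± 0.31) and for Wnt9a (20.6, 28.8 and 35.2 CPM in WT, 10.7, 11.1 and 12.6 CPM in INSL3-KI, -1.30 ± 0.20). Wnt5a, the most abundant ligand of the tissue, was at 74.5, 86.9 and 69.1 CPM in WT and 156, 91.0 and 117 CPM in INSL3-KI, without overlap but short of the threshold (0.66 ± 0.19, adjusted p = 0.019). Wnt10a (1.02) and Wnt10b (-1.10) were not called either.

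Receptors changed as unevenly. Fzd9 fell the most of all members, from 60.2, 46.2 and 63.7 CPM to 1.58, 3.44 and 1.66 CPM (-4.67 ± 0.31, adjusted p = 9.6e-06). Fzd10 fell from 26.3, 25.7 and 26.5 CPM to 11.1, 7.66 and 7.23 CPM (-1.59 ± 0.18). Fzd1 rose from 44.1, 43.2 and 46.3 CPM to 207, 144 and 172 CPM (1.97 ± 0.14, adjusted p = 1.4e-05), so that it replaced Fzd9 as the most abundant receptor in FPKM (43.8 against 1.01 for Fzd9). Fzd6, known for planar cell polarity, rose from 19.0, 24.6 and 26.1 CPM to 52.8, 56.9 and 50.8 CPM (1.20 ± 0.14). Fzd2 (0.41), Fzd3 (0.43) and Fzd7 (0.56) were also higher in every INSL3-KI library, at under 2-fold, and Fzd5 and Fzd8 overlapped. Fzd4 was lower, at under 2-fold (-0.51).

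R-spondins and secreted inhibitors followed no common direction either. Rspo3 rose from 16.2, 17.0 and 13.1 CPM to 115, 105 and 91.9 CPM (2.75 ± 0.14, adjusted p = 2.3e-06). Rspo1 fell from 19.1, 43.5 and 25.0 CPM to 13.1, 10.4 and 11 CPM (-1.35 ± 0.29, adjusted p = 0.0047). The Rspo1 call was lost without WT replicate 2 or any INSL3-KI library. Rspo4 was lower without being called (63, 64 and 42 counts in WT, 7, 13 and 0 in INSL3-KI, -3.19). Dkk2 rose from 7.37, 6.96 and 12.9 CPM to 128, 42.2 and 88.3 CPM (3.25 ± 0.42, adjusted p = 0.00036). Dkk3 rose from 17.8, 22.3 and 29.1 CPM to 100, 71.6 and 62.0 CPM (1.76 ± 0.23). The INSL3-KI libraries differed about 3-fold among themselves for Dkk2, yet none came near WT. Sfrp4 fell from 58.2, 51.1 and 50 CPM to 7.75, 5.19 and 7.14 CPM (-2.99 ± 0.17). Sfrp1 rose from 43.5, 57.8 and 88.3 CPM to 137, 134 and 128 CPM (1.07 ± 0.23), a call that held only when WT replicate 3 was the library left out. Sfrp2, the most abundant member, was at 448, 464 and 549 CPM in WT and 1510, 598 and 1090 CPM in INSL3-KI (1.13 ± 0.30, adjusted p = 0.013).

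**Figure D2:**
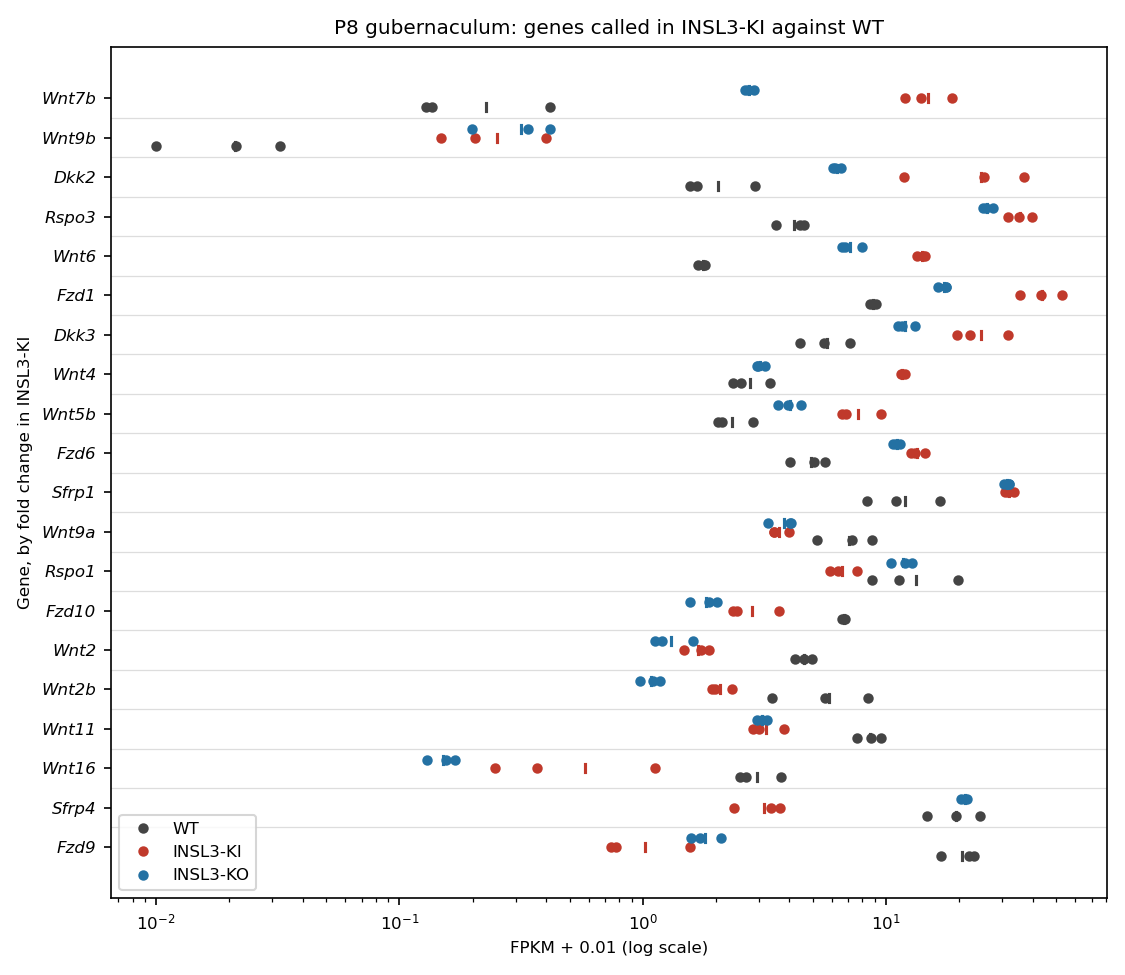
FPKM + 0.01 (log scale) in each P8 gubernaculum library for the 20 genes called in INSL3-KI against WT; points are libraries, short bars are group means. INSL3-KO libraries lie on the INSL3-KI side of WT for most genes, and with WT for Wnt4, Sfrp4 and Rspo1.

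INSL3-KO against WT in P8 gubernaculum, across the 2 tables, gave 7 higher and 11 lower of 33 tested, beside 15.5% and 15.2% of all genes. The groups did not overlap for 27, beside 74.7%. Wnt6 was at 14.3, 13.5 and 16.6 CPM in INSL3-KO (log2 fold change 1.83 ± 0.14), Wnt7b at 9.75, 9.36 and 10.2 CPM (3.48 ± 0.47), Rspo3 at 63.1, 60.8 and 67.6 CPM (2.12 ± 0.11) and Dkk2 at 24.8, 22.8 and 23.3 CPM (1.45 ± 0.24). Each of these was above every WT library. Fzd9 at 3.73, 4.87 and 4.04 CPM (-3.67 ± 0.17), Wnt16 at 0.281, 0.415 and 0.424 CPM (-3.87 ± 0.31) and Fzd10 at 6.2, 6.61 and 5.22 CPM (-2.05 ± 0.12) were below every WT library. Wnt9b, Fzd6 and Sfrp1 were also called higher, and Wnt2, Wnt2b, Wnt9a, Wnt10b, Wnt11 and Rspo4 lower. Fzd3 and Fzd4 are counted among the 11, but for them genotype and gene model cannot be told apart, and without them 9 were lower. The calls of Wnt9a, Wnt9b, Wnt10b, Fzd6 and Sfrp1 were each lost without at least 1 library, and the other 13 held in all such fits. Wnt4 did not differ detectably, with 13.7, 12.6 and 12.7 CPM in INSL3-KO and 12.0, 16.0 and 11.4 CPM in WT (-0.01 ± 0.15, adjusted p = 0.95). Since both mutants were set against the same WT libraries, their shared calls are not independent.

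Set directly against INSL3-KO, the INSL3-KI gubernaculum had 8 genes higher and 2 lower of 34 tested, beside 11.9% and 10.5% of all genes, again across tables. The groups did not overlap for 24, beside 72.3%. Wnt4 was higher in INSL3-KI (49.4, 48.2 and 48.3 CPM against 15.4, 14.2 and 14.4 CPM, 1.73 ± 0.07, adjusted p = 5.6e-06), as was Wnt7b (45.5, 61.6 and 39.7 CPM against 11, 10.6 and 11.6 CPM, 2.15 ± 0.17). Sfrp4 was lower (8.18, 5.36 and 7.5 CPM against 42.8, 41.1 and 43.8 CPM, -2.60 ± 0.16) and so was Rspo1 (-1.04 ± 0.13), both with every INSL3-KI library under every INSL3-KO library. Fzd1 (1.14), Fzd2 (1.14), Dkk2 (1.76) and Wnt3a (2.56, at under 1 CPM) were also higher. The 8 include Fzd3 and Fzd4, without which 6 were higher. The calls of Wnt3a, Dkk2, Rspo1 and Fzd1 were each lost without at least 1 library, and the other 6 held in all such fits.

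Fzd3, Fzd4 and Fzd8 had much shorter gene models in the second table. The length implied by counts and FPKM was 13560 bases for Fzd3 by the first table but 4594 by the second, 7156 and 4084 for Fzd4, and 6370 and 3699 for Fzd8, whereas 27 of the 35 genes for which it could be computed kept the median ratio of 1.036 within 5%. Smaller differences beyond 5% included Sfrp4 (2602 and 1939), Rspo3 (3269 and 2641) and Wnt11 (2045 and 2549), whose values across tables carry the same limit. Fzd4 was lower in all 3 gubernaculum libraries of the second table (17.0 to 19.2 CPM) than in all 12 of the first (55.3 to 412 CPM), and lower in all 9 testis libraries of the second (1.6 to 5.02 CPM) than in all 15 of the first (5.67 to 46.5 CPM). Its log2 fold change was -2.88 in P8 gubernaculum and -2.71 in P8 testis for INSL3-KO against WT, both across tables, but 0.09 ± 0.27 for INSL3-KO against WT in P23 testis, within the second table. Fzd3 turned from -1.63 in counts to 0.12 in log2(FPKM + 0.1) for INSL3-KO against WT in P8 gubernaculum, Fzd8 from -0.77 to 0.23 and Sfrp4 from -0.42 to 0.14. The part of the gene models in these differences was not tested. Calls of Fzd3, Fzd4 and Fzd8 across tables are therefore kept in the counts as the fit gave them, with the count without these 3 genes beside it.

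**Figure D3:**
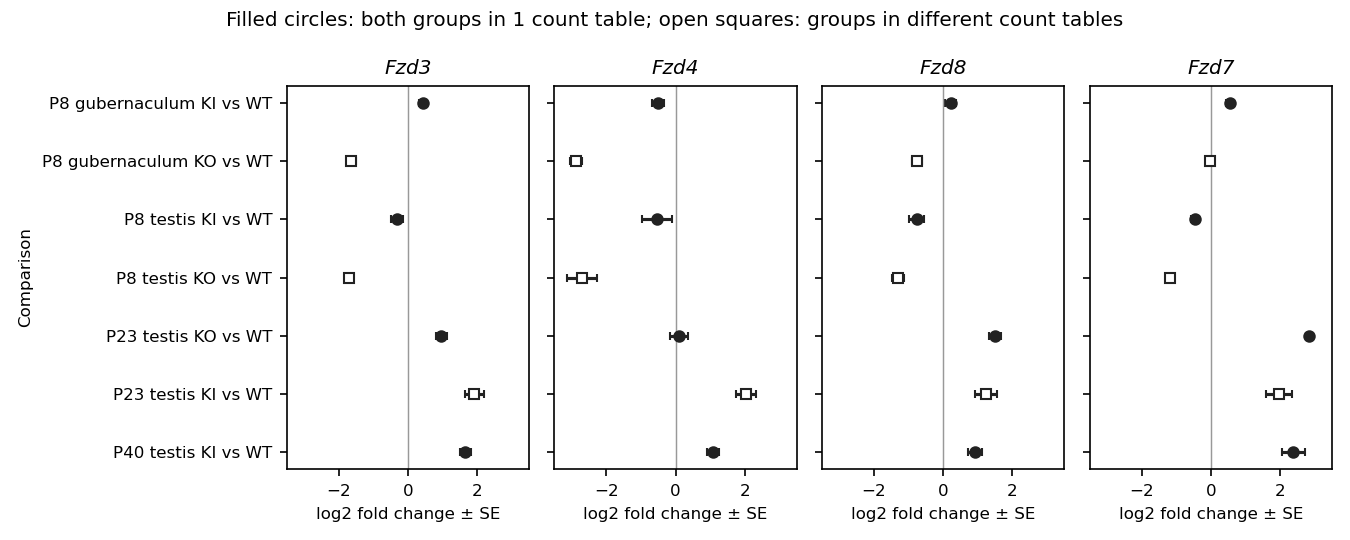
Log2 fold change ± SE of Fzd3, Fzd4, Fzd8 and, for contrast, Fzd7 in 7 comparisons; filled circles have both groups in 1 count table, open squares set groups of different tables against each other. Fzd4 is at -2.88 and -2.71 in the open squares of INSL3-KO against WT at P8 and at 0.09 for INSL3-KO against WT within the second table.

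Markers of other tissues moved with these genes in bulk RNA, where fewer cells of a type and less RNA per cell cannot be told apart. The summed CPM of 10 skeletal muscle markers was 35900 to 38900 in WT gubernaculum at P8, 1500 to 2450 in INSL3-KI and 7270 to 7850 in INSL3-KO, with all 10 lower in INSL3-KI. That of 6 smooth muscle markers was 1110 to 1480, 17300 to 21500 and 6840 to 7280, with 5 of the 6 higher in INSL3-KI. That of 10 markers of Wolffian duct and epididymal epithelium was 18.2 to 46.0, 1760 to 3080 and 1590 to 1670, with 8 of the 8 tested higher in INSL3-KI, and that of 6 adipocyte markers was 82.8 to 93.9, 862 to 1160 and 1940 to 2200. That of 6 fibroblast markers was 22400 to 23600 in WT, 12100 to 19000 in INSL3-KI and 16100 to 17200 in INSL3-KO, with 1 of the 6 lower in INSL3-KI. The order of the 3 genotypes differed between these lists, smooth muscle being highest in INSL3-KI and adipocyte markers in INSL3-KO. Hepatocyte markers summed to at most 15.3 CPM in WT and INSL3-KI gubernaculum at P8, but in INSL3-KO to 5840, 1400 and 122 CPM, beside Wnt9b at 1.89, 0.873 and 1.54 CPM in the same libraries. The part of any of these cell types in the Wnt differences was not tested.

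**Figure D4:**
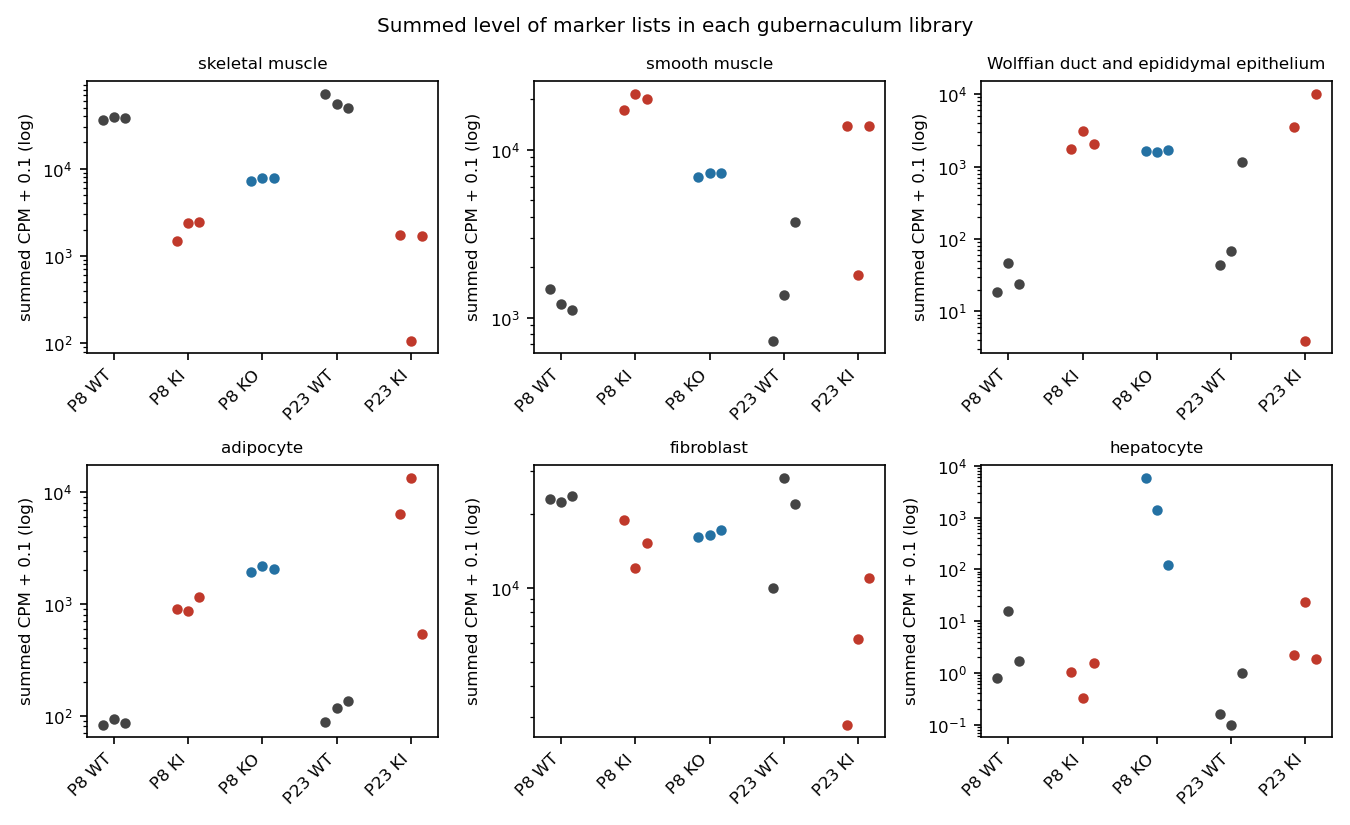
Summed CPM + 0.1 (log scale) of 6 marker lists in each gubernaculum library; points are libraries, grey for WT, red for INSL3-KI and blue for INSL3-KO. Skeletal muscle markers fall and epithelial markers rise in both mutants at P8, and 1 INSL3-KI library at P23 has almost no epithelial and the most adipocyte signal. Also at P23, 1 WT library has far more epithelial signal than the other WT libraries.

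Other genes of the pathway, a list of 82, moved in both directions in INSL3-KI gubernaculum at P8: 17 higher and 10 lower of 78 tested, with a median log2 fold change of 0.10, beside 14.4% and 9.70% of all genes and their median of 0.02. Among the co-receptors and R-spondin receptors 3 were higher, Lgr5 (1.91), Lgr6 (2.46) and the Frizzled-degrading ligase Rnf43 (3.95), and Ror2, a receptor of Wnt5a, was lower (-1.06). Of the genes that mature or release ligands, Porcn, the enzyme that attaches the lipid, was higher (1.51), while the glypicans Gpc4 (-2.79) and Gpc3 (-2.20) and the Wnt-inactivating enzyme Notum (-2.07) were among the 4 lower. Of 9 other secreted inhibitors and their receptors tested, 4 were lower, Frzb (-3.71) and the Dkk receptor Kremen1 (-2.36) among them, and Sost (5.75) was the 1 higher. In the group of TCF/LEF factors and common targets 5 of 13 tested were higher, led by the inhibitor Apcdd1 (4.02) and Lef1 (3.17), and Axin2 was not called. In INSL3-KO, across tables, 8 were higher and 18 lower of 78, beside 15.5% and 15.2% of all genes.

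At P23 the gubernaculum of INSL3-KI and WT, both in the first table, differed by the test in 1 member of 32, with 1 lower, beside 2.35% of all genes, and 0 higher, beside 0.212%. DESeq2 called 1 higher and 7 lower, beside 828 higher and 1385 lower of all genes. Sfrp5 was lower, at 2.67, 2.86 and 2.57 CPM against 14.5, 15.3 and 17.2 CPM (-2.54 ± 0.22, adjusted p = 0.0032), and kept the call without INSL3-KI replicate 2 or 3 but not without any other library. The groups did not overlap for 14 members, beside 41.2%, and 13 had an unadjusted p under 0.05, beside 33.6% of all genes. Rspo1 (3.71, 8.16 and 7.62 CPM against 69.3, 76.9 and 37.9 CPM, adjusted p = 0.01), Fzd9 (1.52, 1.42 and 0.207 CPM against 29.1, 19.2 and 21.5 CPM, adjusted p = 0.021), Sfrp4 (1.12, 14.1 and 8.95 CPM against 257, 180 and 95.6 CPM, adjusted p = 0.036) and Wnt9a (7.25, 5.02 and 10.3 CPM against 37.3, 25.1 and 28.3 CPM, adjusted p = 0.019) were below WT in every library without reaching the threshold. INSL3-KI replicate 2 stood apart, with 13500 CPM of adipocyte and 3.83 CPM of epithelial markers, and it held Wnt7b at 0 CPM beside 77.4 and 43.3 CPM, Wnt4 at 4.9 CPM beside 37.1 and 56.9 CPM, and Rspo3 at 9.61 CPM beside 51.4 and 108 CPM. Without it the number called was still 1, and it was 2 without replicate 3 and 0 without any other library. Adipocyte markers were at 6340 and 542 CPM in INSL3-KI replicates 1 and 3. WT replicate 3 also stood apart, with 1140 CPM of epithelial markers against 43.6 and 67.9 CPM in the other WT libraries. It held Wnt7b at 225 counts, against 25 and 43. The part of these markers in the Wnt values was not tested.

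In WT gubernaculum, P23 against P8 gave 3 members higher and 4 lower of 32, beside 6.17% and 4.34% of all genes, and 14 without overlap, beside 54.3%. Sfrp5 rose from 2.47, 2.5 and 3.53 CPM to 13.4, 14.6 and 16.3 CPM (2.38 ± 0.22, adjusted p = 0.00089). Sfrp4 (1.87) and Fzd4 (1.33) were also higher, and Wnt16 (-2.93), Wnt2 (-2.62), Wnt11 (-1.64) and Fzd9 (-1.15) lower. Except for Sfrp5, each of these calls was lost when at least 1 library was left out, and the count fell to 1 without P8 replicate 2, and to 2, 2 and 3 without P8 replicate 1, P8 replicate 3 and P23 replicate 2. The P23 group includes replicate 3, with 1140 CPM of epithelial markers against 43.6 and 67.9 CPM.

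WT gubernaculum and WT testis at P8 differed in 18 members of 34 tested, 11 higher in gubernaculum and 7 higher in testis, beside 14.1% and 14.3% of all genes, with 23 not overlapping, beside 69.2%. Wnt6 was the clearest testis ligand, at 242, 280 and 213 CPM in testis and 4.3, 4.64 and 4.69 CPM in gubernaculum (-5.75 ± 0.15, adjusted p = 5e-07). Wnt3 had no count in the 3 gubernaculum libraries and 1.57, 2.06 and 1.45 CPM in testis. Fzd9 (3.19), Sfrp2 (3.25), Wnt2 (3.09), Wnt9a (2.46), Wnt11 (2.38), Fzd4 (2.58), Fzd10 (2.03), Sfrp4 (2.31), Wnt16 (5.03), Wnt10b (2.29) and Sfrp5 (2.60) were higher in gubernaculum, and Fzd3 (-1.99), Sfrp1 (-1.75), Wnt5b (-1.26), Fzd5 (-1.01) and Rspo4 (-1.90) in testis. The calls of Wnt5b, Wnt10b, Fzd5, Fzd10, Rspo4, Sfrp1 and Sfrp5 were each lost without at least 1 library, and the other 11 held.

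In testis at P8 few members were called in INSL3-KI by the test, although their median fold change lay below that of all genes. Of 34 tested, 1 was lower and 0 higher, beside 3.25% and 3.03% of all genes, and 17 did not overlap, beside 55.4%. An unadjusted p under 0.05 was found for 18, beside 48% of all genes. DESeq2 called 0 higher and 9 lower, beside 1013 higher and 1127 lower of all genes. Rspo2 fell from 10.2, 10.8 and 9.27 CPM to 4.76, 3.04 and 4.19 CPM (-1.33 ± 0.24, adjusted p = 0.0094), a call that held only when INSL3-KI replicate 2 was the library left out. Wnt6 stood at 291, 337 and 256 CPM in WT and 139, 62.2 and 144 CPM in INSL3-KI (-1.36 ± 0.32, adjusted p = 0.019). Wnt5a stood at 106, 138 and 160 CPM and 64.3, 34.8 and 71.0 CPM (adjusted p = 0.019). Sfrp1 stood at 156, 227 and 413 CPM and 92.2, 52.4 and 98.9 CPM (adjusted p = 0.02). The median was -0.89 over the 34 and 0.00 over all genes. Beside it, summed spermatocyte markers were at 45.8 to 98.1 CPM in WT and 435 to 1460 CPM in INSL3-KI. Fibroblast markers were at 5640 to 16300 and 2760 to 4520 CPM, and Leydig cell markers at 639 to 744 and 223 to 274 CPM. The Leydig cell list includes Insl3, the altered gene, so its sum cannot be read as Leydig cell content. The part of these cell types in the Wnt values was not tested. INSL3-KI replicate 2 held the most spermatocyte marker signal (1460 CPM, against 532 and 435) and the lowest Wnt6, Wnt5a and Sfrp1, and WT replicate 3 the most fibroblast marker signal (16300 CPM, against 5640 and 8850) and the highest Sfrp1. Without the former 2 members were called, and without any other single library 0.

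The P8 testis libraries labelled INSL3-KO, across tables, had 11 members lower and 0 higher of 34, beside 8.37% and 5.44% of all genes, and 20 not overlapping, beside 64.3%. Wnt6 was at 152, 138 and 142 CPM (-1.04 ± 0.10, adjusted p = 0.0002), Wnt5a at 70.9, 58.8 and 67.6 CPM (-1.04 ± 0.15), Wnt2b at 5.81, 6.63 and 5.2 CPM (-1.37 ± 0.14) and Rspo2 at 3.88, 3.8 and 5.45 CPM (-1.21 ± 0.20), each below every WT library. Fzd2 (-1.45), Fzd7 (-1.17), Wnt11 (-1.40) and Sfrp1 (-1.41) were called too. Fzd3, Fzd4 and Fzd8 are also among the 11, and without them 8 were lower. The calls of Wnt5a, Wnt6, Wnt11, Fzd4, Rspo2 and Sfrp1 were each lost without at least 1 library. Summed spermatocyte markers were at 607 to 611 CPM in these libraries and fibroblast markers at 4460 to 4600 CPM, against the WT ranges above. Leydig cell markers, with Insl3 among them, were at 529 to 554 CPM. The part of these markers was not tested. The count rose to 19 without WT replicate 1 and fell to 6 without INSL3-KO replicate 2 and 7 without WT replicate 2. Against these libraries INSL3-KI was called higher in 2, beside 2.76% (3.92% of all genes in either direction). Those 2 were Fzd3 and Fzd4, for which genotype and gene model cannot be told apart. None was lower, beside 1.16%, and 10 did not overlap, beside 52.3%.

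As WT testis matured from P8 to P40, 3 ligands rose and most other members fell: 21 of 34 were lower and 3 higher, beside 27.8% and 31.9% of all genes (59.7% in either direction), and 31 did not overlap, beside 85.4%. Wnt3 rose from 1.43, 1.91 and 1.32 CPM to 45.9, 48.2 and 43.5 CPM (4.88 ± 0.17, adjusted p = 1.2e-07). Wnt3a (0.0909, 0.104 and 0 CPM to 1.27, 1.31 and 1.62 CPM) and Wnt7a (0.591, 0.269 and 0 CPM to 3.2, 3.17 and 2.79 CPM) rose at much lower levels. Wnt6 fell from 220, 260 and 195 CPM to 30.3, 30.1 and 29.2 CPM (-2.91 ± 0.12). Sfrp1 fell from 118, 175 and 313 CPM to 6.51, 5.1 and 9.16 CPM (-4.86 ± 0.42). Fzd2 fell from 44.0, 54.0 and 66.5 CPM to 2.43, 3.58 and 5.29 CPM (-3.85 ± 0.29). Sfrp2 fell by 5.86 on the log2 scale, Sfrp4 by 6.32, Wnt5a by 3.85, Dkk3 by 3.67, Fzd7 by 2.66, Fzd3 by 2.56 and Fzd5 by 2.27. Rspo3 was at 0.659, 5.47 and 13.8 CPM at P8 and had at most 0.0901 CPM at P40. The median was -2.57 over the members and -0.03 over all genes, and 17 of the 24 calls held whichever library was left out. Over the same ages the summed spermatid markers went from at most 2.47 CPM to 5090 to 5850 CPM, and those of Sertoli cells from 1380 to 1770 CPM to 182 to 227 CPM.

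At P23, INSL3-KO against WT testis lies wholly within the second table, and 20 members were higher and 5 lower of 33 tested, beside 31.1% and 33.4% of all genes (64.4% in either direction), with 28 not overlapping, beside 89.7%. Wnt3 was at 47.0, 54.6 and 58.4 CPM in WT and 0.672, 0.742 and 0.812 CPM in INSL3-KO (-6.16 ± 0.13, adjusted p = 2.8e-11). Wnt7a was also lower (1.94, 2.82 and 1.79 CPM against 0.185, 0.18 and 0.0833 CPM, -3.84 ± 0.43), with Wnt3a, Wnt2 (-1.75) and Wnt1, the last at under 1 CPM. The calls of Wnt2, Wnt3a, Wnt9a, Wnt10a and Fzd9 were each lost without at least 1 library, and the other 20 held. Wnt6 was at 15, 19.9 and 19.7 CPM in WT and 100, 107 and 98.1 CPM in INSL3-KO (2.48 ± 0.10, adjusted p = 4.6e-09). Wnt4 was at 0.201, 0.544 and 0.413 CPM and 7.36, 7.54 and 7.47 CPM (4.26 ± 0.27). Wnt5a was higher by 1.40 ± 0.15, and Wnt2b (1.75), Wnt9a (1.37) and Wnt10a (2.96) were higher too.

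Of the 10 Frizzled genes, 6 were called higher in that comparison: Fzd1 from 7.96, 6.29 and 6.5 CPM to 53.4, 52.9 and 52.0 CPM (2.93 ± 0.09, adjusted p = 5.7e-10) and Fzd7 from 5.45, 5.03 and 5.16 CPM to 34.6, 39.3 and 37.7 CPM (2.83 ± 0.09), with Fzd5 (2.33), Fzd2 (1.79), Fzd8 (1.48) and Fzd9 (1.11) also called and none called lower. All 4 R-spondins were higher, Rspo1 at 4.61, 4.65 and 4.08 CPM against 0.301, 1.02 and 0.997 CPM (2.52 ± 0.36) and Rspo2 at 2.62, 1.9 and 1.71 CPM against 0.134, 0.136 and 0.138 CPM (3.90 ± 0.39). Rspo4 was higher by 1.39, and Rspo3 was at 1.18, 0.681 and 1.87 CPM against at most 0.0688 CPM. Sfrp4 was called higher from near 0, and of the other secreted inhibitors Sfrp2 at 5.95, 8.28 and 5.29 CPM against 0.87, 0.782 and 0.963 CPM (2.90 ± 0.24), with Sfrp1 higher by 1.14 and Dkk3 by 1.64 on the log2 scale. Wnt6 and its neighbour Wnt10a (6.2 kb apart on chromosome 1) both were higher, whereas Wnt3 fell and its neighbour Wnt9b was too low to be tested.

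INSL3-KI against WT testis at P23, across tables, had 9 members higher and 1 lower of 31, beside 8.81% and 11.8% of all genes, and 26 not overlapping, beside 68.1%. Wnt3 was at 0.729, 1.17 and 0.376 CPM in INSL3-KI (-6.05 ± 0.40, adjusted p = 0.00031) and was called whichever library was left out. Dkk3 (5.51, 4.63 and 5.06 CPM against 1.2, 0.965 and 1.07 CPM, 2.23 ± 0.23), Fzd7 (15.7, 11.2 and 30.7 CPM against 5.15, 4.76 and 4.86 CPM, 1.96 ± 0.38), Fzd2 (1.81), Fzd5 (1.68), Fzd10 (1.89), Wnt2b (2.24) and Sfrp1 (1.14) were higher. The 9 include Fzd3 and Fzd4, without which 7 were higher. The other 9 calls rested on few libraries: the count was 1 without any 1 of the WT libraries and 2 without INSL3-KI replicate 1, and 13 without INSL3-KI replicate 2 or 3. INSL3-KI replicate 3 differed from its group in markers (36.0 CPM of spermatid and 1090 CPM of Sertoli cell markers, against 294 and 405, and 515 and 402) and was the highest of the 3 for Wnt6 (36.1, 26.2 and 76.8 CPM) and Fzd1 (13.1, 13.4 and 26.1 CPM).

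Against INSL3-KO at P23, also across tables, INSL3-KI had 2 members higher and 3 lower of 32, beside 25.2% and 13% of all genes (38.2% in either direction), with 18 not overlapping, beside 76.0%. Wnt7a was higher (2.49, 2.79 and 0.962 CPM against 0.214, 0.209 and 0.097 CPM, 3.56 ± 0.59, adjusted p = 0.0022). Fzd4 was the other gene called higher, and without it 1 was higher. Wnt4 (1.51, 1.14 and 3.93 CPM against 8.53, 8.71 and 8.7 CPM, -1.98 ± 0.47), Fzd1 (-1.47) and Rspo1 (-1.33) were lower. Wnt3 was low in both (0.16 ± 0.49, adjusted p = 0.78). Without INSL3-KI replicate 3 the count was 12, without replicate 2 it was 3, and without replicate 1 or any INSL3-KO library it was 1.

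At P40, INSL3-KI and WT testis are both in the first table, and 12 members were higher and 3 lower of 32, beside 25.6% and 22.1% of all genes, with 24 not overlapping, beside 83.9%. The 3 lower were those that rose with age in WT. Wnt3 was at 44.8, 47.1 and 42.5 CPM in WT and 0.338, 0.659 and 0.246 CPM in INSL3-KI (-6.75 ± 0.36, adjusted p = 8.7e-05). Wnt7a was at 3.13, 3.1 and 2.73 CPM and 0.766, 0.227 and 0.134 CPM (-2.98 ± 0.61). Wnt3a was at 1.24, 1.28 and 1.59 CPM and 0.0676, 0.273 and 0.0448 CPM (-3.39 ± 0.63). No WT library overlapped an INSL3-KI library in any of them, but the calls of Wnt3a and Wnt7a were lost without any 1 of the WT libraries, with adjusted p up to 0.014 and 0.021. Wnt6 was at 29.6, 29.4 and 28.5 CPM in WT and 99.7, 114 and 126 CPM in INSL3-KI (1.96 ± 0.13, adjusted p = 0.00016). Wnt2b was the other ligand that was higher (1.66 ± 0.23).

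Fzd1 (10.5, 8.39 and 13.9 CPM to 38.4, 60.4 and 52.7 CPM, 2.21 ± 0.26), Fzd7 (5.31, 6.77 and 11.1 CPM to 30.1, 44.8 and 46.2 CPM, 2.38 ± 0.33) and Fzd3 (13.4, 13.2 and 17.1 CPM to 38.6, 51.9 and 47.6 CPM, 1.66 ± 0.17) were higher in P40 INSL3-KI, and here Fzd3 and Fzd4 (1.08 ± 0.19) were counted on 1 set of gene models. Fzd5 (1.88), Fzd10 (1.92), Fzd2 (1.41) and Fzd9 (1.16) were higher too, so that 8 of the 10 receptors were called, and the calls of Fzd2, Fzd4 and Fzd10 were lost without WT replicate 1 or 2 or INSL3-KI replicate 3, and those of Fzd2 and Fzd10 also without INSL3-KI replicate 2. Fzd8 lay above WT in every library at under 2-fold (0.91), and Fzd6 overlapped. Rspo4 (1.21, 0.876 and 0.97 CPM to 2.91, 3.41 and 2.8 CPM, 1.58 ± 0.24) and Sfrp2 (0.829, 0.909 and 0.735 CPM to 3.38, 3.68 and 3.99 CPM, 2.16 ± 0.21) were the remaining calls, and Dkk3 (1.33, adjusted p = 0.013) fell short. Wnt4 was at 0.867, 0 and 2.14 CPM in WT and 2.79, 6.91 and 8.58 CPM in INSL3-KI (adjusted p = 0.062).

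**Figure D5:**
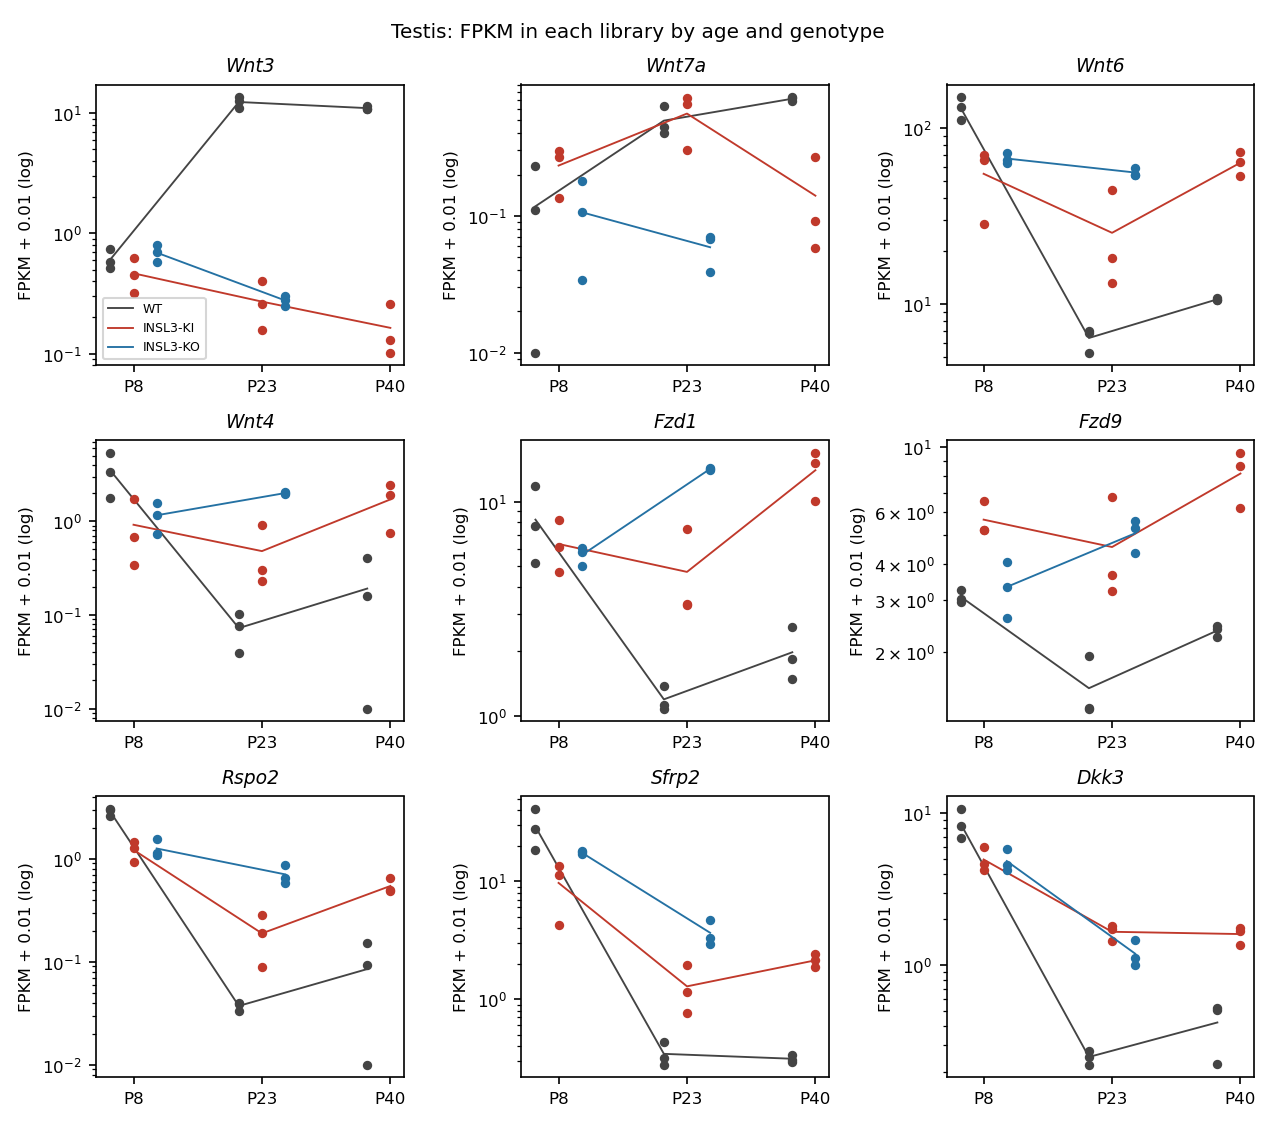
FPKM + 0.01 (log scale) of 9 genes in each testis library at P8, P23 and P40; points are libraries and lines join group means of WT (grey), INSL3-KI (red) and INSL3-KO (blue). Wnt3 climbs in WT only, and at P23 Wnt7a is low in INSL3-KO but not in INSL3-KI. The group means of Wnt6 and Sfrp2 are lower in both mutants than in WT at P8. These means are higher than in WT in both mutants at P23, and in INSL3-KI at P40. Of these differences, those of INSL3-KI at P8 and P23 and that of Sfrp2 in INSL3-KO at P8 were not called. INSL3-KO at P8 and INSL3-KI at P23 are set against WT across count tables.

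Cell type markers moved with the testis members. Spermatid markers summed to 5090 to 5850 CPM in WT at P40 and 10.7 to 30.7 CPM in INSL3-KI, and to 7050 to 8520 CPM in WT at P23, 36.0 to 405 CPM in INSL3-KI and 13.3 to 15.4 CPM in INSL3-KO. Sertoli cell markers summed to 182 to 227 CPM in WT at P40 and 1030 to 1710 CPM in INSL3-KI, and fibroblast markers to 181 to 432 CPM and 1110 to 1950 CPM. INSL3-KI replicate 1 at P40 stood apart, with 1050 CPM of spermatocyte markers (against 290 and 216) and 1030 CPM of Sertoli cell markers (against 1710 and 1630). It was the INSL3-KI library nearest WT for Wnt6, Fzd1, Fzd3 and Fzd7, but not for Wnt3 or Rspo4. Of the 82 other pathway genes 33 were higher and 8 lower of 79 tested in P40 INSL3-KI, with a median of 0.87, beside 25.6% and 22.1% of all genes and their median of 0.09. Among them were Axin2 (1.87), a common beta-catenin target, the R-spondin receptors Lgr4 (1.96, higher) and Lgr5 (-5.82, lower), and the ligand carrier Wls (1.89). In P23 INSL3-KO 35 were higher and 18 lower of 78, beside 31.1% and 33.4% of all genes, with the spermatid gene Dkkl1 at -7.78, Lef1 at -4.69 and Axin2 at 2.26. The part of these cell types in the Wnt differences was not tested.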

How the data were processed

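RNA-seq libraries of mouse gubernaculum and testis had been made by the authors from poly(A) RNA, sequenced as paired-end reads on a NovaSeq and aligned with HISAT2 to GRCm38, as named in the submitters' processing notes. The authors deposited 2 tables with raw counts and FPKM values for each gene; the counting program and annotation are not given in the sources used here, and the tables differ in gene models. Samples were grouped by their labels. The tables were joined on Ensembl identifiers, and deposited counts were tested with edgeR 4.0.16 in R 4.3.3 (quasi-likelihood, TMM, filterByExpr with a minimum count of 10 and minimum total of 15), separately for each comparison, so CPM of a library differ slightly between comparisons. A gene was called at a Benjamini-Hochberg adjusted p under 0.01 over all genes and a fold of at least 2. SE is the log2 fold change divided by the root of F. The deposited FPKM values served for levels and, with pseudocounts of 1 and 0.1, for limma 3.58.1 as an alternative; DESeq2 1.42.0, other scalings, no filter, a replicate block, 1 fit per tissue and leaving out each library were the others. Tables were written with pandas 2.3.3 in Python 3.11.15. The edgeR fit was also run on data simulated for 2 comparisons, INSL3-KI against WT in P8 gubernaculum and in P40 testis. These data had a fixed spread, lower than that of noisier groups such as P23 gubernaculum, so they do not test the calls there.

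The members, lists and tests were chosen with earlier results of these data known. By the rule for named genes, members that were called or did not overlap were to be given with their library values where the higher group reached 1 CPM, within-table comparisons first, and of the other pathway genes at most 3 per group of genes with a mean of 5 CPM. Not every such member is given above, and some are given by log2 fold change only. Library totals were 29861447 to 45260372 counts, so counting error is small for all but the lowest genes. Same-numbered samples deviated together (correlation over 0.1 in all 3 pairs) in no comparison, so numbers were not taken to pair samples. This rule cannot exclude shared animals or litters, which are not stated. For INSL3-KI and WT in P23 gubernaculum the 3 correlations were -0.085, 0.31 and 0.45.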

Additional observations from a re-analysis of the deposited data

Results flagged for a closer look

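The INSL3-KI effect on several members differed between ages or tissues by a test of the difference itself (edgeR, adjusted p under 0.01 and at least 2-fold); each value below is the difference between 2 log2 fold changes of INSL3-KI against WT, all within the first table, and no cause was tested.

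Between P40 and P8 testis, 13 differences were positive and 1 negative of 36 tested, beside 23.2% and 22.5% of all genes. The ligands Wnt6 (3.23), Wnt2b (2.46) and Wnt5a (2.11) and the receptors Fzd7 (2.77), Fzd1 (2.62), Fzd2 (2.58), Fzd3 (1.91), Fzd8 (1.59) and Fzd5 (1.19) had a higher effect at P40, as did Rspo2 (3.39), Sfrp2 (3.77), Sfrp4 (3.74) and Dkk3 (2.15). Wnt3 (-6.33) was the exception. The calls of Fzd5 and Rspo2 were lost in 8 and 9 of the 12 fits without 1 library, and the other 12 held.

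Between gubernaculum and testis at P8, 14 differences were positive and 3 negative of 37 tested, beside 12.9% and 8.92% of all genes. Those of Wnt7b (6.66), Wnt6 (4.02), Wnt4 (3.79), Wnt5a (1.91), Wnt5b (1.87), Fzd1 (2.46), Fzd2 (1.66), Fzd6 (1.19), Fzd7 (1.03), Rspo3 (5.43), Sfrp1 (2.78), Sfrp2 (2.83), Dkk2 (4.88) and Dkk3 (2.66) were positive, with the effect higher in gubernaculum. Those of Fzd9 (-5.44), Rspo4 (-3.55) and Sfrp4 (-1.95) were negative. The calls of Fzd6, Fzd7, Rspo3, Rspo4 and Sfrp2 were each lost without at least 1 library, and the other 12 held.

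In gubernaculum, P23 minus P8, Sfrp5 (-2.76) was the 1 member called of 34 tested, beside 0.194% of all genes called lower. Its call was lost in 8 of the 12 fits without 1 library, with an adjusted p of up to 0.018 by edgeR, and with the replicate block.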

How the results depend on the processing

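Of 134 counts of members called under alternatives that left out no library, 99 were within 1.5 times the reported count. When every group of a tissue was fitted jointly, the count was 8 for INSL3-KO and 4 for INSL3-KI against INSL3-KO in P8 gubernaculum, 10 at P23 gubernaculum, 6 for INSL3-KI in P8 testis, 17 for INSL3-KI against WT in P23 testis, 2 for age in WT gubernaculum, and 5 and 23 for the age differences of the INSL3-KI effect in gubernaculum and testis. DESeq2 gave 8 in P23 gubernaculum, 9 in P8 testis (INSL3-KI), 18 and 9 for INSL3-KI against WT and against INSL3-KO in P23 testis, and 6 and 23 for those age differences. Without the filter P23 gubernaculum had 2 and P8 testis (INSL3-KI) 0, and with library size P8 testis had 0 and P23 testis (INSL3-KI) 16. With FPKM + 1 the counts were 3 in P23 gubernaculum, 0, 3 and 0 in P8 testis (INSL3-KI, INSL3-KO and between them), 15 for INSL3-KO and 3 for INSL3-KI against INSL3-KO in P23 testis; with FPKM + 0.1 they were 3, then 0, 5 and 1, and 24 at P40 and 23 for the testis age difference. Of all genes, DESeq2 called 828 higher and 1385 lower in P23 gubernaculum, and 1013 and 1127 in P8 testis (INSL3-KI). In P23 testis it called 2089 and 3045 for INSL3-KI against WT, and 4566 and 2588 against INSL3-KO. For the age differences it called 390 and 736 in gubernaculum, and 4241 and 4713 in testis. The other counts of this section stand without a share over all genes, and are not read as results about the members. The cause of these changes was not tested.

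Replicate numbers were not taken to pair the samples. Whether libraries of the same number share an animal or litter was not tested. With the replicate block, counts were 0 in P23 gubernaculum and in P8 testis (INSL3-KI), 4 for INSL3-KI in P23 testis, 2 for age in WT gubernaculum and 0 for the age difference in gubernaculum, and within 1.5 times of the reported count elsewhere.

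Directions turned with FPKM + 1 and FPKM + 0.1 for INSL3-KO in P8 gubernaculum (Fzd3 0.083 and 0.12, Fzd8 0.17 and 0.23, Sfrp4 0.13 and 0.14), between the mutants there (Wnt11 0.033 and 0.040, Sfrp1 0.023 and 0.024), for Fzd3 between the mutants in testis (-0.20 and -0.22 at P8, -0.60 and -0.80 at P23) and for Fzd9 with age in WT testis (-0.28 and -0.37, and -0.36 with library size).

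Leaving out 1 library at a time gave 16 to 19 calls for INSL3-KI and 15 to 18 for INSL3-KO in P8 gubernaculum, 7 to 10 between them, 0 to 2 in P23 gubernaculum, 0 to 2, 6 to 19 and 2 to 3 for INSL3-KI, INSL3-KO and between them in P8 testis, 1 to 13, 22 to 25 and 1 to 12 in the same order in P23 testis, 10 to 19 in P40 testis, 19 to 30 and 1 to 7 for age in WT testis and gubernaculum, 12 to 20 between the tissues, and 0 to 5, 12 to 17 and 13 to 19 for the differences of the INSL3-KI effect.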
